A study of Mus musculus with 14 samples.

Results

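A set of 9 genes that mouse cells use to repair DNA by homologous recombination and to hold the cell cycle while replication is disturbed were followed across 14 arrays of SCp2 mammary epithelial cells. The genes were Brca1, Bard1, Brip1, Brca2, Fancd2, Blm, Exo1, Chek1 and H2ax, which are 9 of the 18193 genes that the platform annotation names on probe sets that carry 1 gene name. They were picked from earlier results on these arrays that set dishes plated with 250K cells against dishes plated with 50K cells. Every probe set whose annotation names 1 of these genes and no other was taken, which gave 21 probe sets, and 20 of them varied over the 14 arrays with an SD of at least 0.049, a limit that 40% of probe sets on the array did not reach. SCp2 is an established mouse mammary epithelial cell line. Dishes received the matrix metalloproteinase MMP3 or served as controls for 3 days, at 50K, 100K and 250K cells per dish in experiment A and at 25K, 50K, 100K and 250K cells per dish in experiment B. RNA was read on Affymetrix Mouse 430 2.0 arrays, and each combination of agent, density and experiment is 1 array, so MMP3 has 7 arrays and control has 7. All dishes were grown in the same medium with 2% serum, and every group is the same line, so the arrays show this line in culture and not mammary tissue. The labels do not say whether experiments A and B were separate cultures, so p-values measure the spread between these arrays, which may be technical.

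Homologous recombination copies the intact sister DNA to mend a break or a collapsed replication fork. The ends are first trimmed to single strands, the BRCA proteins then prepare them for pairing with the sister, and helicases later separate the joined molecules. The replication checkpoint senses the same single-stranded DNA and stops the cycle through the CHEK1 kinase, and most of these genes are known to be transcribed mainly in cells that are preparing for or passing through S phase. In the human breast, inherited loss of BRCA1, BRCA2 or their partners is known for predisposing to cancer.

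Values are deposited log2 expression with each probe set's median over the 14 arrays set to 0, and they compare arrays without giving a level. The labelled cell type therefore could not be checked by the level of its markers. The epithelial list held differences between agents in experiment A, where Epcam was higher by 1.18 and Cdh1 by 0.89 and Krt5 fell by 1.03 with MMP3 (limma, adjusted p = 0.0191, 0.0334 and 0.0234, listed in that order), while none of the 9 fibroblast, 7 macrophage and 5 endothelial markers was called there. Their part in the results on the recombination genes was not tested. The interferon-response gene Ifit1, which separated the agents in experiment A with 2.83 to 4.21 on MMP3 arrays and -2.98 to -2.91 on control arrays, went against the label on 4 arrays of experiment B. On the arrays labelled MMP3 at 25K and 100K it was -2.83 and -2.97, and on those labelled control at 50K and 250K it was 3.71 and 4.26. Experiment A does not contain these 4 arrays. The fit of all arrays and the comparison of density slopes are given with and without them. The other results of experiment B are given as labelled, and there each pair of MMP3 and control arrays of the same density holds 1 of them. The array of experiment B labelled MMP3 100K also had the widest spread, an SD of 0.87 over all probe sets against 0.23 to 0.41 on the other 13 arrays.

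In MMP3 dishes each of the 9 genes was lower at 250K than at 50K in both experiments, whereas in control dishes the genes went different ways. Each gene is described through the probe set that varied most, unless another is named. Of all 21 probe sets, 20 and 16 were lower at 250K in the MMP3 pairs of experiments A and B. In the control pairs these counts were 14 and 15. This contrast is the one by which the genes were picked, so its values are a description and carry no test. In MMP3 dishes the median difference over the 9 genes was -0.57 in experiment A and -1.32 in experiment B, and in control dishes it was -0.16 and 0.12. Over all named genes the same 4 medians lay between -0.02 and 0.02. The control pair of experiment B consists of arrays that went against their label for Ifit1, and the MMP3 pair of that experiment holds none of these arrays.

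**Figure D1:**
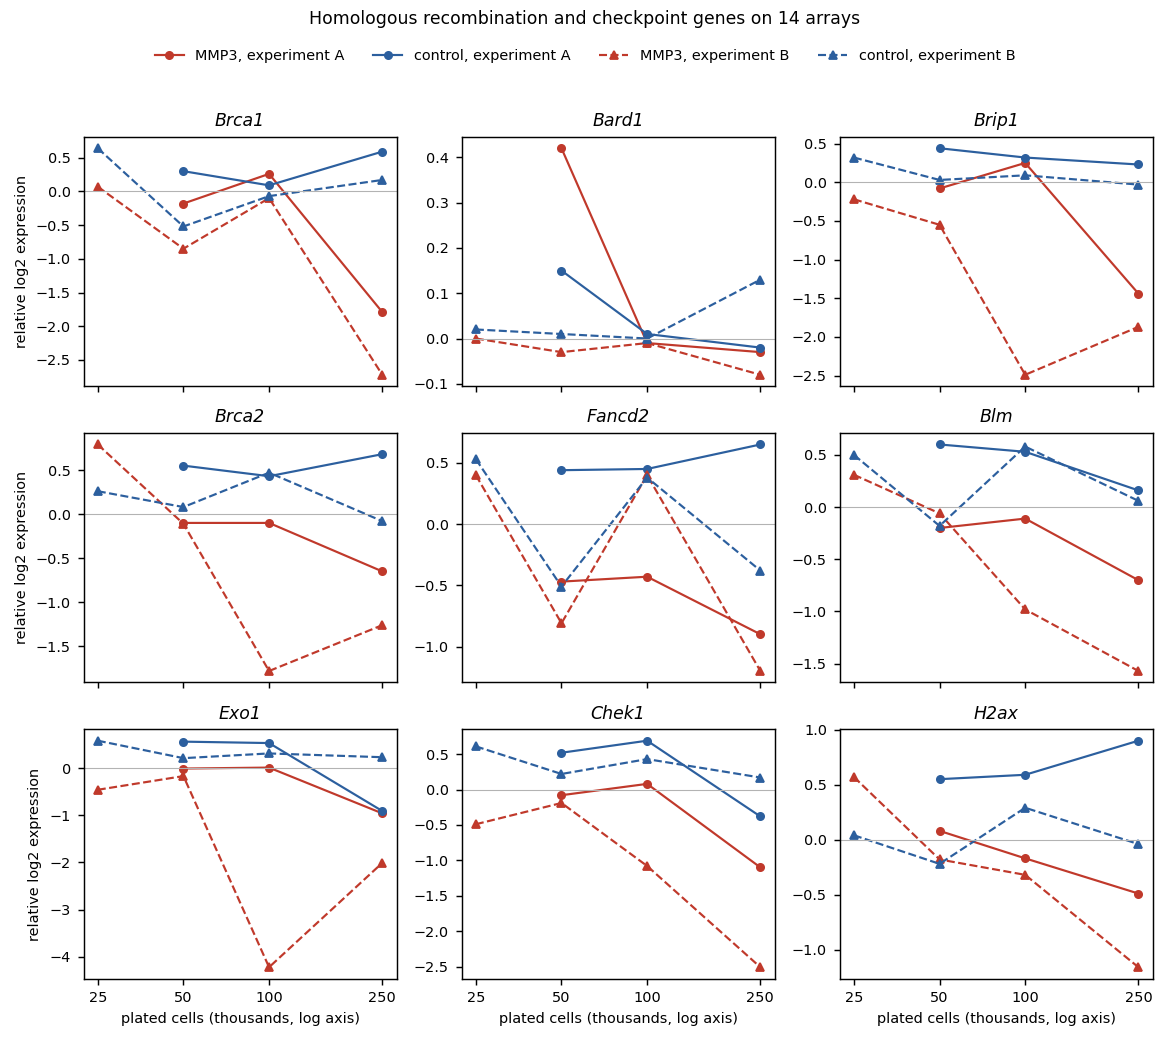
Relative log2 expression (y axis, each gene on its own scale) of the 9 genes against the number of cells plated (x axis, labelled 25 to 250 for 25K to 250K, log axis), with 1 point per array. Red lines are MMP3 and blue lines control dishes, solid for experiment A and dashed for experiment B; Brca1 lay at -1.79 and -2.72 on the MMP3 250K arrays, against 0.59 and 0.17 on the control 250K arrays.

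Brca1, the scaffold of the complex that directs breaks into recombination, had the widest gap between agents at 250K among the most variable probe sets. It read -0.18, 0.26 and -1.79 on the MMP3 arrays of experiment A at 50K, 100K and 250K, against 0.30, 0.09 and 0.59 on the control arrays. In experiment B it read 0.07, -0.85, -0.10 and -2.72 on the MMP3 arrays at 25K to 250K, against 0.64, -0.52, -0.07 and 0.17 on the control arrays. The MMP3 arrays at 250K were thus the lowest of each experiment, and at the lower densities the agents overlapped. The 250K minus 50K difference was -1.61 and -1.87 in the MMP3 pairs and 0.29 and 0.69 in the control pairs. Another probe set, 1451417_at, gave -1.15 and -1.22 with MMP3 and -0.26 and -0.04 in control, and 1424629_at gave -0.81 and -1.20 with MMP3 and -0.27 and -0.09 in control. These probe sets share the direction in MMP3 dishes and differ from the first in the sign of the control pairs. On both of them the gap between agents at 250K was narrower than on the first. The remaining probe set, 1427698_at, stayed within 0.06 of 0 on all arrays except the control arrays of experiment A at 50K and 250K, where it read 0.64 and 0.63.

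Brip1 encodes the helicase that binds the repeats at the end of BRCA1. It read -0.08, 0.25 and -1.44 on the MMP3 arrays of experiment A from 50K to 250K, against 0.44, 0.32 and 0.23 on the control arrays. On the arrays of experiment B from 25K to 250K it read -0.22, -0.55, -2.49 and -1.87 with MMP3, against 0.32, 0.03, 0.09 and -0.03 in control. With MMP3 the low values of this gene began at 100K in experiment B and at 250K in experiment A. From 50K to 250K Brip1 differed by -1.36 and -1.32 in the MMP3 pairs and by -0.21 and -0.06 in the control pairs.

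Brca2 encodes a mediator of recombination that acts on single-stranded DNA. It read -0.10, -0.10 and -0.65 with MMP3 in experiment A, against 0.55, 0.43 and 0.68 in control. On the arrays of experiment B it read 0.79, -0.11, -1.78 and -1.26 with MMP3, against 0.26, 0.08, 0.47 and -0.08 in control. In experiment A all MMP3 arrays lay below all control arrays, as they did for 43.5% of all probe sets. The groups overlapped in experiment B, where the MMP3 25K array was the highest. Bard1, the RING partner that stabilises BRCA1, had 1 probe set, which stayed between -0.08 and 0.15 on 13 arrays and read 0.42 on the MMP3 50K array of experiment A. Its 250K minus 50K differences were -0.45 and -0.05 with MMP3 and -0.16 and 0.12 in control, and the first of these rests on that array.

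Fancd2, whose protein is placed on chromatin beside DNA crosslinks, had 4 probe sets. The one with the largest SD, 1439091_at, read -0.47, -0.43 and -0.90 with MMP3 in experiment A, against 0.44, 0.45 and 0.65 in control. In experiment B it read 0.40, -0.81, 0.40 and -1.20 with MMP3, against 0.53, -0.51, 0.38 and -0.38 in control. The agents were apart in experiment A and followed each other in experiment B, where the 25K and 100K arrays of both labels were high and the 50K and 250K arrays of both labels were low. The 4 arrays with high Fancd2 are those on which Ifit1 was low, and their relation was not tested. The density difference was -0.43 and -0.39 in the MMP3 pairs and 0.21 and 0.13 in the control pairs. Probe set 1438339_at gave -0.26 and -0.31 with MMP3 and 0.55 and -0.26 in control, 1442092_at was not lower in the MMP3 pairs, at 0.02 and 0.17, and 1430916_at stayed near 0 except for 0.92 on the MMP3 100K array of experiment B.

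Blm encodes the helicase that takes joined DNA molecules apart. It read -0.20, -0.11 and -0.70 with MMP3 in experiment A, against 0.60, 0.53 and 0.16 in control. In experiment B it read 0.31, -0.06, -0.98 and -1.57 with MMP3 from 25K to 250K, against 0.50, -0.18, 0.58 and 0.06 in control. The MMP3 values of experiment B were lower with each step of density, and the control values had no such order. The 250K minus 50K difference was -0.51 and -1.51 in the MMP3 pairs and -0.45 and 0.24 in the control pairs.

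Exo1, the nuclease that trims DNA ends over long distances, was also lower at 250K in the control dishes of experiment A. It read -0.01, 0.01 and -0.96 with MMP3 in experiment A, against 0.56, 0.53 and -0.91 in control. The arrays of experiment B read -0.46, -0.17, -4.22 and -2.01 with MMP3, against 0.58, 0.21, 0.31 and 0.23 in control. At 250K the agents met in experiment A and were far apart in experiment B. The density difference was -0.95 and -1.84 in the MMP3 pairs and -1.48 and 0.02 in the control pairs. Its probe set 1418027_at gave -0.65 and -2.0 with MMP3 and -1.14 and -0.46 in control, and 1430225_at, the one below the SD limit, varied little on any array.

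Chek1, the effector kinase of the replication checkpoint, read -0.08, 0.08 and -1.10 with MMP3 in experiment A, against 0.52, 0.69 and -0.38 in control. In experiment B it read -0.49, -0.19, -1.08 and -2.51 with MMP3, against 0.61, 0.22, 0.43 and 0.17 in control. In both experiments the lowest array was MMP3 at 250K. The density difference was -1.02 and -2.32 in the MMP3 pairs and -0.90 and -0.05 in the control pairs. Of its 5 probe sets, 1449708_s_at and 1439208_at were lower in all 4 pairs as well, at -0.72 to -1.81 in the MMP3 pairs, while 1420031_at and 1420032_at differed by -0.14 to 0.11 in the pairs. H2ax, the histone variant that is phosphorylated around breaks, read 0.08, -0.17 and -0.49 with MMP3 in experiment A, against 0.55, 0.59 and 0.90 in control. For experiment B the values were 0.57, -0.18, -0.32 and -1.16 with MMP3, against 0.04, -0.22, 0.29 and -0.04 in control. H2ax thus descended with density in the MMP3 dishes of both experiments and was highest at 250K in the control dishes of experiment A. Its density difference was -0.57 and -0.99 in the MMP3 pairs and 0.35 and 0.19 in the control pairs.

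**Figure D2:**
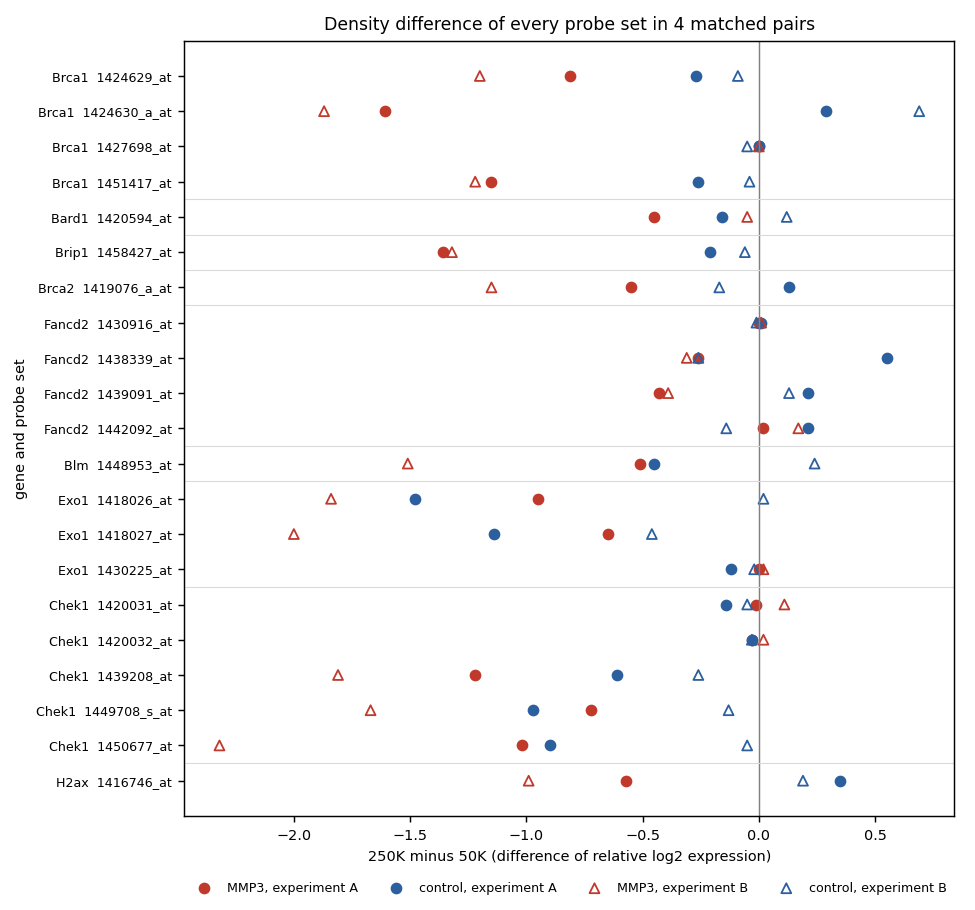
Difference between the 250K and the 50K array (x axis, log2) for each of the 21 probe sets (y axis, grouped by gene) in the 4 matched pairs. Red marks are MMP3 and blue marks control pairs, filled circles experiment A and open triangles experiment B; the red marks of the Brca1, Brip1, Exo1 and Chek1 probe sets with the widest range lie between -0.95 and -2.32, while blue marks lie on both sides of 0.

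Counted over probe sets, 8 of the 21 were lower at 250K in all 4 pairs, against 8.39% of the 45037 probe sets on the array, and of the most variable probe sets of the 9 genes these were Brip1 and Chek1. The 8 came from Brca1, Brip1, Exo1 and Chek1. Among them, Brca1 probe set 1427698_at was nearly flat, with differences between -0.05 and 0.0. A difference of -1 or below in both MMP3 pairs was found for 5 of the 21, from Brca1, Brip1 and Chek1, against 0.313% of all probe sets. In both control pairs it was found for 0 of the 21, against 0.02% of all probe sets. Because the genes were picked on this contrast, nothing further is read from these shares. Without the control pair of experiment B, 5 of the 9 genes were lower in all 3 remaining pairs, against 16.1% of named genes. In bulk RNA, fewer cells of a kind and less RNA per cell cannot be told apart.

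The promoters of Brip1 and Chek1, the genes lower in all 4 pairs, and of Brca1 are shown for their sequence. Brca1 had the widest gap between agents at 250K among the most variable probe sets. They come from RefSeq on GRCm38.p6, 250 bases before to 50 bases after the transcription start, and 6 of the 9 genes matched that table. Brip1 lies at chr11:86201144-86201443, minus strand, Chek1 at chr9:36726609-36726908, minus strand and Brca1 at chr11:101551906-101552205, minus strand. Capitals mark E2F-type words and the CCAAT box or its reverse complement.
Brip1: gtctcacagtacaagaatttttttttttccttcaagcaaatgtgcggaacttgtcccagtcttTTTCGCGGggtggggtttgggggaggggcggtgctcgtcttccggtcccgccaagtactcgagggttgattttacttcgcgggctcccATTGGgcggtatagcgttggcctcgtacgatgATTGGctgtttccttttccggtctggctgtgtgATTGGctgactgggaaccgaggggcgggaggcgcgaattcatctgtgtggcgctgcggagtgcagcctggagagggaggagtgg
Chek1: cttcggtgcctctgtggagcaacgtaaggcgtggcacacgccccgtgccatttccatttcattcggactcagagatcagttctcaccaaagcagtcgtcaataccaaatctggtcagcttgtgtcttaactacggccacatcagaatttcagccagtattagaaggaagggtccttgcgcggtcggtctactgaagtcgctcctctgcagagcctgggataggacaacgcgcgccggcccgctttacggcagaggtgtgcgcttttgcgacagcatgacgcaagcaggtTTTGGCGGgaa
Brca1: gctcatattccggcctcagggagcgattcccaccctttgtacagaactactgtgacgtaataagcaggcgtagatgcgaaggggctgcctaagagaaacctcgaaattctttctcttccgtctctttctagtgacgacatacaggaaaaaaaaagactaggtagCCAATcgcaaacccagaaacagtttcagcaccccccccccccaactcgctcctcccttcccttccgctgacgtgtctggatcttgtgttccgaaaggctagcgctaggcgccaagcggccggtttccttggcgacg
The E2F-type words searched on both strands were TTTCCCGC, TTTCCCGG, TTTCGCGC, TTTCGCGG, TTTGCCGC, TTTGCCGG, TTTGGCGC and TTTGGCGG. At least 1 was found in 4 of the 6 promoters, against 4.51% of the 32851 mouse promoters in the table. Brip1 held TTTCGCGG at bases -187 to -180 from the start, and Chek1 held TTTGGCGG at bases 39 to 46 after it. Brca2 held TTTCGCGG at bases 5 to 12 and, on the other strand, GCGGGAAA at bases -168 to -161, and Bard1, the gene that varied least, held TTTCCCGC at bases -209 to -202. The CCAAT box, searched on both strands, was present in Brca1, Brip1 and Blm, which is 3 of 6 against 37.4% of all promoters, and Brip1 held 3 copies. The word TTTGAA, the core of the cell-cycle homology region, was present in Bard1, which is 1 of 6 against 17.9% of all promoters. The 3 motifs did not overlap in these windows. A match describes the letters of the window and shows no binding.

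In experiment A, H2ax was lower in MMP3 than in control dishes and was the only one of the 21 probe sets called, against 4.11% of all 45037 probe sets. A count of 1 of 21 is close to that share, so nothing is read from it about the genes as a set. The H2ax difference at the mean density was -0.87 (SE 0.05, limma, adjusted p = 0.0349), and its 3 MMP3 arrays lay below its 3 control arrays. Fancd2 differed by -1.11 (SE 0.09, limma, adjusted p = 0.0502), Brca2 by -0.83 (SE 0.12, limma, adjusted p = 0.0879) and Blm by -0.77 (SE 0.13, limma, adjusted p = 0.11), and none of these passed the threshold of 0.05. For these 4 genes the groups did not overlap. In all, 10 of the 21 probe sets had all 3 MMP3 arrays below all 3 control arrays, and so did 43.5% of all probe sets, so the count is read against a background of that size. The other genes had wider errors, at -0.90 (SE 0.48) for Brca1, -0.76 (SE 0.37) for Brip1, -0.64 (SE 0.33) for Chek1, -0.38 (SE 0.30) for Exo1 and 0.08 (SE 0.10) for Bard1. Without the MMP3 250K array Brca1 differed by -0.09, Brip1 by -0.15 and Chek1 by -0.32, and Exo1 lay between -0.75 without the control 250K array and -0.15 without the MMP3 50K array. The Exo1 probe set 1418027_at differed by -1.07 (SE 0.33, limma, adjusted p = 0.232). Over the 21 probe sets the median was -0.56, against -0.02 over all probe sets. The agent fits of experiments A and B each include arrays on which the genes were picked, so neither is an independent test of them. With only probe sets above the SD limit, 4 of the 20 probe sets of these genes were called, from H2ax, Fancd2, Brca2 and Blm. That is close to the 19.9% of the 27022 probe sets then tested, so it does not set the genes apart. With any 1 of the 6 arrays left out, 0 of the 45037 probe sets were called, and H2ax lay between -0.97 and -0.72 with limma adjusted p of 0.0765 to 0.17. RNA controls also differed between the agents in experiment A without overlap: the 18S rRNA probe set read 0.92 to 1.15 with MMP3, against 0.45 to 0.83 in control, and the Gapdh 3′ minus 5′ difference was 0.04 to 0.17 with MMP3, against -0.03 to 0.03 in control. Their part in the H2ax difference was not tested.

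**Figure D3:**
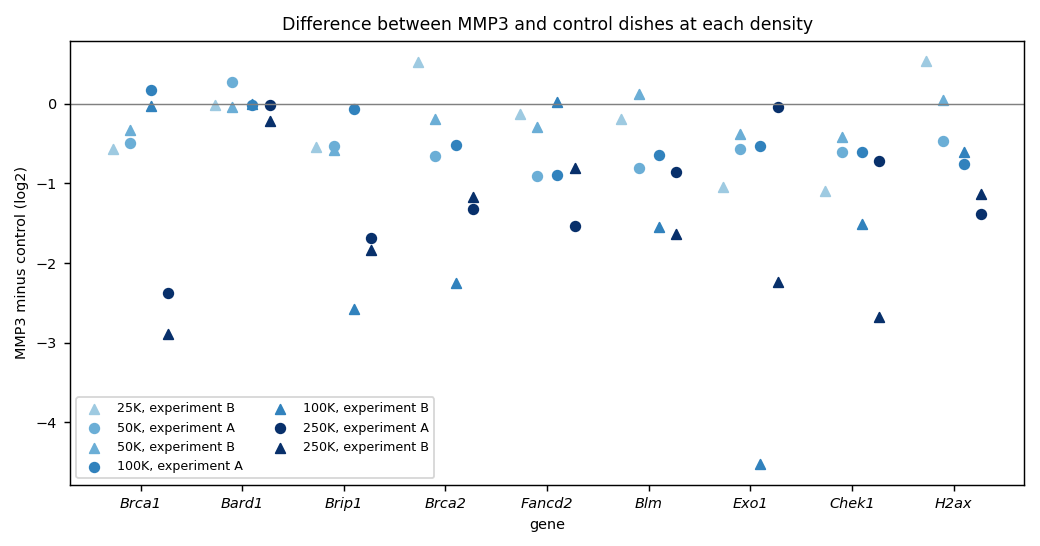
MMP3 minus control difference (y axis, log2) of each of the 9 genes (x axis) in the 7 pairs of arrays matched by density and experiment. Circles are experiment A, triangles experiment B, and darker blue means more cells plated; Brip1, Exo1 and Chek1 are below 0 in 7 of 7 pairs, and the Exo1 triangle at -4.53 is the 100K pair of experiment B.

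In experiment B, as labelled, none of the 21 probe sets was called, and 0% of all probe sets were (limma), with 3230 probe sets at an unadjusted p under 0.05, 7 of them from the 9 genes. Chek1 differed by -1.43 (SE 0.26, limma, adjusted p = 0.369), Brip1 by -1.39 (SE 0.37, limma, adjusted p = 0.484) and Exo1 by -2.05 (SE 0.86, limma, adjusted p = 0.751). H2ax differed by -0.29 (SE 0.14, limma, adjusted p = 0.862). Exo1 differed by -1.75 (SE 0.65, limma, adjusted p = 0.669) through 1418027_at. Without the MMP3 100K array Exo1 differed by -1.26. The difference between the experiments was itself tested, and 0 of the 21 probe sets and 0% of all were called, with 3473 of all and 1 of the 21 at an unadjusted p under 0.05 (limma). For Exo1 that difference was -2.0 (SE 1.18), for Fancd2 0.75 (SE 0.58) and for H2ax 0.31 (SE 0.37).

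In the fit of all 14 arrays with a block for experiment, 0 of the 21 probe sets were called, against 0.619% of all probe sets, and 14 of the 21 had an unadjusted p under 0.05, as did 4570 of all 45037 (limma). The median was -0.62 and 20 of the 21 differences were negative, against 62.9% of all probe sets. This fit also includes the arrays on which the genes were picked, so it is no independent test of them. Blm came closest, at -0.79 (SE 0.16, limma, adjusted p = 0.0575), followed by Chek1 through 1449708_s_at at -0.81 (SE 0.17, limma, adjusted p = 0.0613) and H2ax at -0.54 (SE 0.11, limma, adjusted p = 0.0669). Matched by density and experiment, MMP3 was below control in 7 of 7 pairs for Brip1, Exo1 and Chek1, in 6 of 7 for Brca1, Brca2, Fancd2, Blm and Bard1, and in 5 of 7 for H2ax. Bard1 was nearly flat: of its pairs below 0, only the 250K pair of experiment B (-0.21) went below -0.04. Its difference in the fit was 0 (SE 0.06). Of all named genes 2.61% were lower in 7 of 7 pairs and 9.58% in at least 6 of 7. In experiment A alone, 7 of the 9 genes were lower in all 3 pairs, against 56.9% of named genes. Most of these pairs consist of arrays from the density contrast on which the genes were picked. The shares are therefore a description and no independent test of the genes. Without the 4 arrays that went against their label for Ifit1, 14 of the 21 were called, but so were 55.7% of all probe sets. With each array also set to median 0, an alternative added after the data were seen, 5 of the 21 were called, from H2ax, Brca2, Fancd2 and Blm, against 16% of all. With 1 array left out in turn, no probe set at all was called in 10 of the 14 fits, and the highest count, without the MMP3 100K array of experiment B, was 4 of the 21, against 2.81% of all.

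Whether the change with density depended on the agent was tested by the difference between the density slopes of MMP3 and control dishes, per log2 unit of cells plated. It includes the 50K and 250K arrays on which the genes were picked, so it is no independent test of them. Their slopes are not given here, apart from a change of sign for Exo1 that is reported with the alternatives. None of the 21 probe sets was called, nor was any of all probe sets (0%, limma), with 822 of all at an unadjusted p under 0.05, and none of the 21 was called without the 4 arrays that went against their label. The step from 25K to 100K in experiment B is a difference between arrays outside the 250K against 50K contrast, although its error was estimated over all 8 arrays of the experiment and both of its MMP3 arrays went against their label for Ifit1. There, 0 of the 21 and 0% of all probe sets were called (limma), with 0 of the 21 and 1141 of all at an unadjusted p under 0.05. Exo1 differed by -2.01 (SE 1.15), Brip1 by -1.25 (SE 0.63), Brca2 by -1.18 (SE 0.76) and Fancd2 by -0.07 (SE 0.23), each with an adjusted p of 1 in limma. These average both agents, and by agent the step was -3.75 with MMP3 and -0.27 in control for Exo1, -2.26 with MMP3 and -0.23 in control for Brip1, and -2.57 with MMP3 and 0.21 in control for Brca2. Without the MMP3 100K array the averages were -0.36 for Exo1, -0.45 for Brip1 and -0.20 for Brca2, and without the control 100K array they were -3.66 for Exo1 and -2.04 for Brip1.

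The array labelled MMP3 100K in experiment B held the most extreme value of Exo1, Brip1 and Brca2. On it Exo1 read -4.22, Brip1 -2.49, Brca2 -1.78, Chek1 -1.08 and Blm -0.98, whereas H2ax read -0.32, Brca1 -0.10 and Fancd2 0.40. A value at or below -1 was reached by 5 of the 21 probe sets, against 8.28% of all probe sets on this array. The same array had a mean of -1.27 over 24 S phase replication genes and 0.63 over 19 mitosis genes, an Actb 3′ minus 5′ difference of 0.65 against -0.34 to 0.19 on the others, and a mean of 0.66 over 7 macrophage markers and -0.55 over 10 epithelial markers. Cd68 read 4.61 there and the other 6 macrophage markers between -0.17 and 0.04, and Krt14 read -3.93 and the other 9 epithelial markers between -0.91 and 0.08. Their part in the low values was not tested.

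**Figure D4:**
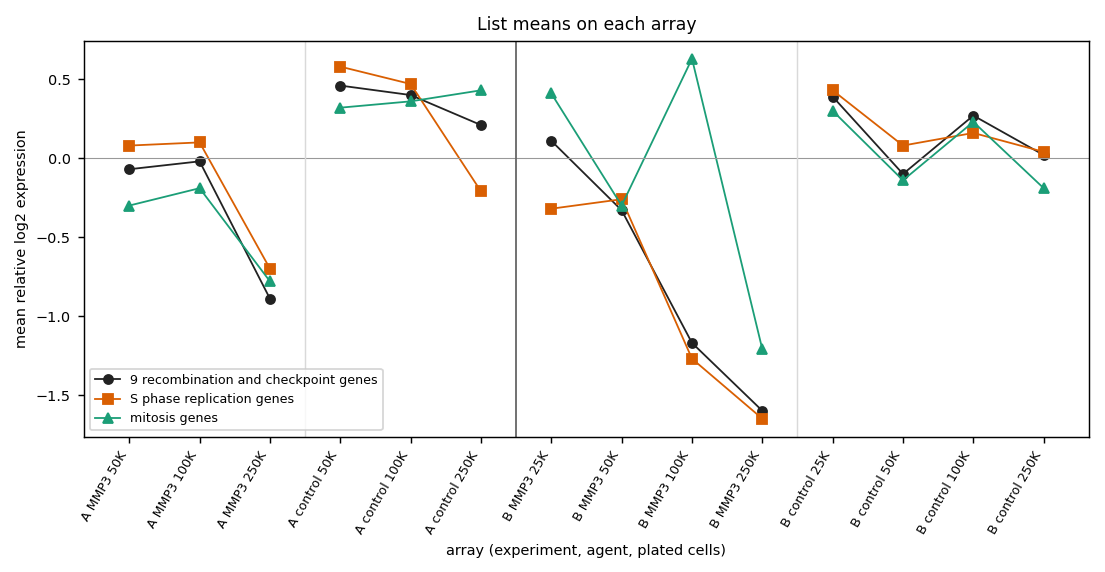
Mean relative log2 expression (y axis) of the 9 genes (black circles), 24 S phase replication genes (orange squares) and 19 mitosis genes (green triangles) on each of the 14 arrays (x axis), with lines joining the densities of 1 agent in 1 experiment. On the MMP3 100K array of experiment B the 9 genes and the S phase genes lie at -1.17 and -1.27 and the mitosis genes at 0.63; on the control 250K array of experiment A the S phase genes lie at -0.21, against 0.21 for the 9 genes and 0.43 for the mitosis genes.

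The other genes of these pathways were described with the same density contrast and no test. Of 19 recombination mediators 6 were lower at 250K in all 4 pairs, against 9.7% of named genes, and the widest mean differences were those of Mms22l (-1.12), which works at stalled forks, the translocases Rad54b (-0.74) and Rad54l (-0.57), and Rad51ap1 (-0.63). In the end resection list 3 of 18 were lower in all 4 pairs, with Dna2, a resection nuclease, at -1.04 and Rpa2, a subunit of the protein that coats single strands, at -0.71. Among resolvases and RecQ helicases 2 of 15 were lower in all 4 pairs. The widest mean differences there were those of the nuclease subunit Eme1 (-1.17) and the resolvase Gen1 (-0.79), and Gen1 differed by 0.46 in the control pair of experiment B. The Fanconi anaemia list had 3 of 14, with the core complex genes Fancb at -0.94 and Fanca at -0.73. The checkpoint list had 4 of 17, with Clspn, the adaptor that brings CHEK1 to its activating kinase, at -0.76 and the phosphatase Cdc25a at -0.68. End joining, the other main route of break repair, had 2 of 9 lower and 3 of 9 higher, with the kinase Prkdc at 0.45 and the Ku subunit Xrcc6 at -0.28. Of the 18193 named genes, 1803 were higher in all 4 pairs. Of 24 S phase replication genes 14 were lower in all 4 pairs, with Orc1 at -1.43 and Mcm5 at -1.15, and of 19 mitosis genes 3 were, with Tpx2 at -0.74 and Plk1 at -0.60. In each list the genes named are those with the widest mean differences. Of those with a negative mean, Rad54b, Dna2, Gen1, Cdc25a and Xrcc6 were not lower in all 4 pairs.

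For the agent in experiment A, 1.91% of named genes were called lower with MMP3. With any array of this experiment left out, no probe set was called. The checkpoint list had 4 of 17 called lower and 0 higher, namely Cdc25b (-1.44), Atr (-1.43), the apical kinase of the checkpoint, Chek2 (-0.51) and Rad9a (-0.32), with limma adjusted p between 0.0345 and 0.041. The mediator list had 2 of 19, Rad51c (-1.25) and Rad51d (-0.82), and the resection list had Rad50 (-0.40), 1 of 18. The mitosis list had 2 of 19, Aurkb (-1.37) and Ccnb2 (-0.98). In experiment B, as labelled, no probe set was called. The differences of the 4 checkpoint genes there were 0.03 for Cdc25b, -0.18 for Atr, -0.15 for Chek2 and -0.25 for Rad9a. No gene of the resolvase, Fanconi anaemia, end joining and S phase lists was called in experiment A, with list medians of -0.22, -0.48, 0.12 and -0.49, against -0.02 over named genes. Over all 14 arrays 0.396% of named genes were called lower. From the lists these were the ATPase gene Fignl1 (-0.81) among mediators, the break-sensing kinase Atm (-0.52), Rnf168 (-0.48) and the single-strand binding subunit Rpa1 (-0.53) among 18 resection and sensing genes, Etaa1 (-0.73) among checkpoint genes, and the primase and polymerase genes Prim1 (-0.75) and Pola1 (-0.67) and the helicase component Gins2 (-0.60) among S phase genes. No list gene was called higher in either fit apart from the epithelial markers named above.

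The genes did not all follow the same profile over the 14 arrays. Set against the mean of the other 8, Pearson's r was 0.970 for Blm, 0.923 for Brip1, 0.894 for Chek1, 0.883 for Brca2, 0.812 for H2ax, 0.751 for Brca1, 0.695 for Exo1, 0.556 for Fancd2 and 0.286 for Bard1. Blm was thus nearest to the common profile, and Fancd2 and Bard1 were farthest from it. Of 11803 other genes above the SD limit, the 10 most like the mean profile of the 9 were Fignl1 (r = 0.989), Cdkn3 (0.985), Rfc2 (0.978), Lig1 (0.978), Rpa1 (0.977), Cenph (0.976), Prim1 (0.975), Pole (0.975), Ska2 (0.974) and E2f8 (0.972). These correlations describe 14 arrays that share agent, density and experiment.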

How the data were processed

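Expression was measured on 14 Affymetrix Mouse 430 2.0 arrays from 200 ng of total RNA each, per the labels' protocols. The deposited values are log2 expression. RMA is the tool named in the submitters' processing notes (no version is given), and every probe set has a median within 1e-06 of 0 over the 14 arrays, so the authors deposited values centred by row. This removes the level and leaves no depth, and the number of arrays limits the precision. Of 45101 probe sets 64 are controls and 45037 were tested, of which 34945 carry 1 gene symbol, 932 several and 9160 none. Old symbols were updated by Entrez gene through a RefSeq table.

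The fits used limma 3.58.1 in R 4.3.3 with Benjamini-Hochberg adjustment over all tested probe sets, a two-sided threshold of 0.05, and agent, centred log2 density and their product as terms. The difference between experiments was the product of agent and experiment over the 12 arrays at 50K to 250K, and the 25K to 100K step took density as separate levels. Experiment was a block in the fit over all 14 arrays, because the labels give the experiment; deviations of same-experiment arrays from group means had a mean correlation of 0.05, between -0.65 and 0.64 over 15 pairs. Pairs of arrays at 250K and 50K were described with no test. The probe set that varied most over the arrays stands for its gene. Every probe set of the 9 genes is given, at most 4 genes per list (the widest differences, or the widest called), and the 10 genes most like the mean profile. The members, lists and tests were chosen with earlier results of these data known, so none is independent of them. Some list genes were not analysed here. The alternatives were an SD filter, 1 probe set per gene, array centring, a robust variance prior, other blocks, and leaving out arrays.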

Additional observations from a re-analysis of the deposited data

Results flagged for a closer look

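Of 36 groups of arrays examined, 2 held an array far from the rest of its group, and chance flags about 1 in 20 such groups. Bard1 read 0.42 on the MMP3 50K array of experiment A, the highest of the 7 MMP3 arrays by a gap of 0.835 of their range. Exo1 read -0.91 on the control 250K array of experiment A, the lowest of the 7 control arrays by a gap of 0.749 of their range. Its other well-varying probe set, 1418027_at, read -0.05 on that array, against 1.09 on both other control arrays of experiment A. No cause was tested for either value.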

How the results depend on the processing

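All counts are of probe sets called in limma. Over all 14 arrays the count of 279 became 589 with the SD filter and 94 with arrays centred. It became 0 with no replicate block and 5 with each matched pair as a replicate block. With the SD filter 4 of the 20 probe sets of the 9 genes were called, against 2.18% of those tested. With 1 probe set per gene 1 of the 9 genes was called, against 1.13% of named genes. Without the 4 arrays that went against their label for Ifit1 the count became 25064 (14 of the 21, against 55.7% of all probe sets). With centring as well it became 7225 (5 of the 21, against 16% of all). Leaving out 1 array gave 0 to 1266, and 0 to 4 of the 21, with 0 in 10 of the 14 fits; the highest counts were 1266 without MMP3 100K and 955 without control 50K of experiment B and 772 without control 250K of experiment A. In experiment A the count of 1853 became 5379 with the SD filter and 5083 with centring added. In each, 4 of the 20 probe sets of the 9 genes were called, against 19.9% and 18.8% of those tested. The count was 963 with arrays centred and 949 with robust eBayes. With 1 probe set per gene 2 of the 9 genes were called, against 6.99% of named genes. Whichever array was left out, the count was 0, with 0 of the 21. H2ax stayed called in experiment A under the filter, centring, robust and 1 probe set per gene settings. The difference between experiments gave 0 to 233 calls (0 to 1 of the 21), with 233 without control 100K of experiment B, and the step from 25K to 100K gave 0 to 4187 (0 to 1 of the 21), with 4187 without that same array. Of the 9 genes 2 were lower at 250K in all pairs, and 5 without the control pair of experiment B. Signs turned for Bard1 over all arrays (0.0017 with centring, 0.060 without the 4 arrays, 0.079 with centring as well, and -0.064 to 0.038 with 1 array left out), and for Bard1 in experiment A (-0.043 to 0.16). They turned for Brca1 (-0.73 to 0.53) and Brca2 (-0.82 to 0.0042) in the difference between experiments and for Exo1 in the slope difference (-0.51 to 0.10). In the step from 25K to 100K they turned for Bard1 (-0.059 to 0.026), Brca1 (-1.06 to 0.18), Fancd2 (-0.29 to 0.14) and H2ax (-0.87 to 0.23). Apart from fewer arrays or probe sets in a fit, the cause was not tested.

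Each combination of agent, density and experiment is 1 array, and the fit of experiment A has 2 residual degrees of freedom, so its errors are imprecise. Values centred by row give no level, so a flat probe set cannot be told apart from one at background. The 4 arrays that went against their label for Ifit1 lie in experiment B, whose other arrays went with theirs. Those read -2.93 on control 25K and control 100K, 4.53 on MMP3 50K and 5.15 on MMP3 250K. Under both labels of experiment B, Ifit1 was thus low at 25K and 100K and high at 50K and 250K. The cause was not tested.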
